A study of Danio rerio with 6 samples.

Results

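mgat4b mutant melanoma was compared with wild-type melanophores of zebrafish skin across all genes. Of the 6 RNA sequencing libraries of the series 4 entered the comparison, 2 per group, chosen by their labels (genotype mgat4b mutant with the treatment MAZERATI, and genotype WT with the cell type melanophore and no treatment). Both groups came from 1-month-old fish of the wild-type strain ASWT. In MAZERATI, plasmids injected into embryos express the oncogene BRAF V600E in melanocytes and cut tumor suppressor genes there with Cas9, and the promoter of mitfa restricts these changes to the melanocyte lineage. The study bases MAZERATI on the MiniCoopR vector, which by its description also carries a mitfa minigene. It reports that injecting this vector raised mitfa transcripts in embryos. In the mutant group a further plasmid (mitfa:Cas9;mitfa:gfp) targeted mgat4b in the melanocyte lineage, so that other cells of the fish stay uncut. Which share of the melanocytes carried each cut, and whether in the same cells, was not given in the sources used here. Skin and tumor biopsies were dissociated, and the cells were enriched by density gradient centrifugation and not sorted by fluorescence. The study describes the mutant preparation as a mixture of melanocytes and transformed cells, and the wild-type preparation carries neither the oncogene nor any cut gene. The labels give skin as the tissue of all libraries, and which libraries came from tumor biopsies was not given in the sources used here, so tissue and group cannot be told apart. The study reports tumors within a month in MAZERATI fish without the cut in mgat4b. Its mutant fish failed to develop melanoma, although their melanocytes showed signs of aggregation. Mutant melanoma is thus a name taken from the labels. The groups also differ in the tumor model as a whole. The parts of the oncogene, a mitfa minigene, the cut tumor suppressors and the cut mgat4b cannot be told apart in this comparison. The submitters state 5 zebrafish for the whole series, so libraries may share fish, and the number behind each library was not given in the sources used here.

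mgat4b encodes a Golgi enzyme that adds a branch to the mannose core of N-glycans, the sugar trees that most cell surface proteins carry. Melanophores are the black pigment cells of fish. They descend from the neural crest, depend on the transcription factor Mitfa, and make melanin in melanosomes with the enzymes Tyr, Tyrp1 and Dct on a scaffold of Pmel. Melanoma is the cancer of this lineage, and BRAF with an activating mutation, which drives MAPK signalling, is its most common oncogene.

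Wild-type melanophores gave 7351705 and 7121087 counts over 25475 and 24955 genes, and mutant melanoma 5225341 and 3538922 counts over 21096 and 20044 genes. The mutant libraries were thus shallower, and they were also less alike. Within the wild-type pair the chi-square per gene was 2.31 and the biological coefficient of variation 0.0668, and within the mutant pair 10.2 and 0.256. The labels call the libraries biological replicates, but do not say whether they came from separate fish, and the p-values measure the spread between these libraries only. Small noncoding RNA took 10.3% and 10.4% of the counts in the wild-type libraries and 38.9% and 32.8% in the mutant libraries. All levels are therefore CPM, gene counts relative to the library size, after scaling by the trimmed mean of M values, which corrects for this difference in composition over the 4 libraries.

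The wild-type libraries carried the melanophore label, but their defining markers were low. Over 14 melanophore markers (the genes listed for mitfa, sox10, tyr, tyrp1, dct, pmela and others) the summed level was 43.3 and 38.1 CPM in wild-type melanophores and 295 and 277 CPM in mutant melanoma, and none of the 14 was at 0 in both libraries of a group. Of the wild-type sums, 15.2 and 13.4 CPM came from a gene listed as MITF (ENSDARG00000037833), which had 1.71 and 0 CPM in mutant melanoma. The 7 keratinocyte markers summed to 11522 and 12138 CPM and to 11817 and 11641 CPM. Keratinocyte transcripts were therefore far more abundant than melanophore transcripts in both groups, and at a similar level. The 4 leukocyte markers summed to 724 and 754 CPM in wild-type melanophores and to 225 and 249.7 CPM in mutant melanoma, and the 7 skeletal muscle markers to 36.3 and 31.2 CPM and to 409.8 and 358 CPM. These are skin preparations with more than 1 cell type, and for every result that follows, more cells of a type and more RNA per cell cannot be told apart.

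Of 17950 genes tested, 3461 were called, which is 19.3%. They were split almost evenly, with 1744 genes higher in mutant melanoma, 9.72% of those tested, and 1717 genes lower, 9.57%. A gene was called at a Benjamini-Hochberg adjusted p under 0.05 in edgeR's quasi-likelihood test and a log2 fold change of 1 or more in size. All fold changes are mutant melanoma relative to wild-type melanophores unless stated otherwise. The median log2 fold change over all tested genes was -0.03, with a 5th percentile of -2.09 and a 95th percentile of 2.09. The groups did not overlap for any of the 3461 called genes, which the thresholds make nearly certain with 2 libraries per group. At a log2 fold change of 2 or more in size 828 genes were called higher and 661 lower, and at 4 or more in size 140 higher and 250 lower. Calls at the lowest counts were mostly falls, as 312 called falls had 3 counts or fewer in both mutant libraries, against 75 called rises with 3 counts or fewer in both wild-type libraries, and the fitted fold changes of such genes depend on the prior count. The count of calls depended on single libraries. It was 1865 and 1820 without wild-type library 1 or 2, where the lone wild-type library is assumed to vary like the mutant ones, and 6452 and 6250 without mutant library 1 or 2, where the spread came from the wild-type pair. A range beside a count of called members is over the fits that leave out 1 library. The lower end of each range came without a wild-type library and the upper end without a mutant library, except for cytosolic ribosomal proteins, where the lower end came without mutant library 2. With raw library totals in place of the composition correction, the median moved from -0.03 to -0.63 and the calls became 883 higher and 4418 lower.

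**Figure D1:**
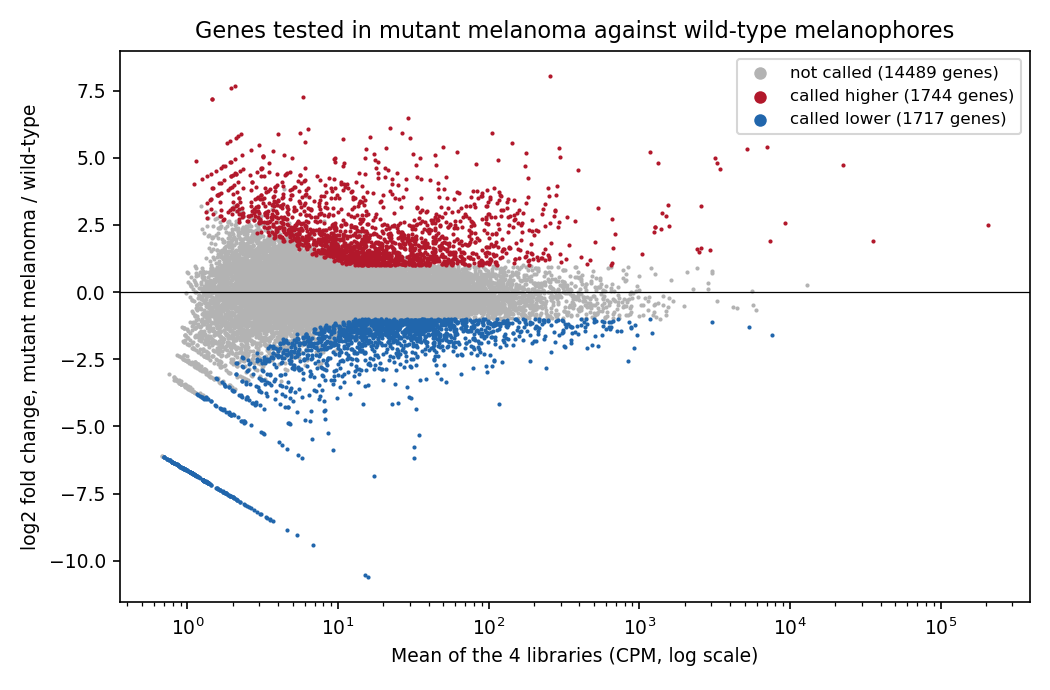
Log2 fold change of mutant melanoma against wild-type melanophores (vertical axis) against the mean level of the 4 libraries (horizontal axis, CPM on a log scale) for the 17950 genes tested, with the 1744 genes called higher, the 1717 called lower and the remaining genes in separate colors. Calls lie on both sides of 0 at all levels, and among genes of 1000 CPM or more rises outnumber falls, 26 against 5 of 72.

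The plot of fold change against level shows that calls were spread over the whole range of abundance, from 4.19% higher and 9.09% lower among genes under 3 CPM to 13% higher and 14.1% lower between 100 and 1000 CPM. Transcript length moved with the direction of change. Of the 343 tested genes with under 500 exonic bases outside the small noncoding list, 41.7% were called higher and 5.54% lower, with a median log2 fold change of 1.19. Between 500 and 1000 bases the shares were 15.6% and 11%, and between 2000 and 3000 bases they were 6.67% and 9.85%. The median exonic length was 128 bases for small noncoding RNAs, 786 for the protein genes of the mitochondrial genome and 1145 for cytosolic ribosomal proteins, and the part of length in their changes was not tested.

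**Figure D2:**
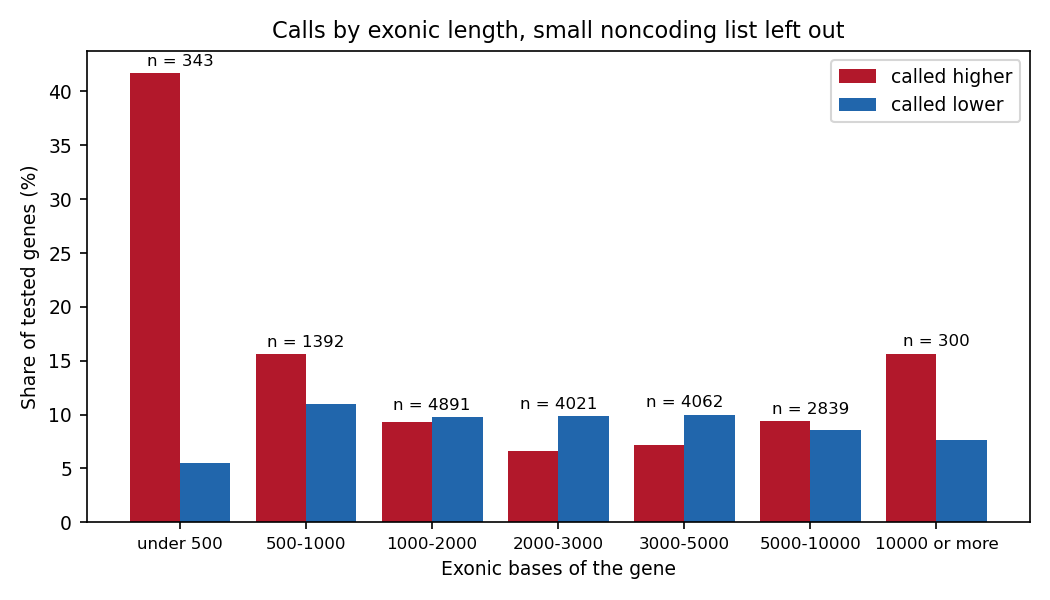
Share of tested genes called higher and lower in mutant melanoma (vertical axis, percent) by exonic length (horizontal axis, bases), without the small noncoding list. The share called higher is 41.7% for genes under 500 bases and between 6.67% and 15.7% in all longer classes.

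MGAT4B, which is cut in the mutant group, and the fish gene of the oncogene did not pass the threshold at the transcript level. MGAT4B (ENSDARG00000004115, chromosome 14, 16483926 to 16754262 in GRCz11) had 29.2 and 29.8 CPM in wild-type melanophores and 23.0 and 17.6 CPM in mutant melanoma (log2 fold change -0.53, standard error 0.22, edgeR adjusted p = 0.124). Both mutant values lay below both wild-type values, but the adjusted p did not pass. The fish gene BRAF stood at 13 and 10.4 CPM in wild-type melanophores and 15.6 and 15.24 CPM in mutant melanoma (log2 fold change 0.40), and reads of the plasmid's oncogene that match it could not be told apart. With this type of plasmid the study reports significantly fewer mgat4b transcripts in sorted melanocytes, by quantitative PCR. The cells here were not sorted, cutting was restricted to melanocytes, and an altered transcript may still be counted. These levels therefore do not check the labels.

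Genes of melanin synthesis were higher in mutant melanoma. Of 21 tested genes of melanin and melanosomes, 10 were called higher, 47.6% against 9.72% of all genes, and 0 lower (0 in edgeR at p under 0.05 before adjustment, 0 called by DESeq2), with a median log2 fold change of 1.89. Without 1 of the libraries the count called higher was 7 to 13. The level of TYRP1 on chromosome 1 (ENSDARG00000056151), an enzyme of melanin synthesis, was 2.65 and 2.30 CPM in wild-type melanophores and 88.0 and 82.0 CPM in mutant melanoma (log2 fold change 5.09, standard error 0.20, edgeR adjusted p = 1.9e-05). The scaffold gene pmela had 4.97 and 5.16 CPM in wild-type melanophores and 109 and 89.8 CPM in mutant melanoma (log2 fold change 4.29, standard error 0.19, edgeR adjusted p = 2.3e-05). TYR, the rate-limiting enzyme of melanin synthesis, had 2.43 and 1.72 CPM in wild-type melanophores and 22.7 and 23.0 CPM in mutant melanoma (log2 fold change 3.45, standard error 0.36, edgeR adjusted p = 0.000734). In each of these genes the mutant libraries stood close together and far above both wild-type libraries. The melanosomal membrane glycoprotein GPNMB rose from 8.61 and 11 to 55.3 and 51.5 CPM (log2 fold change 2.44). GPNMB was also set here as a marker of iridophores, another pigment cell. The anion transporter of melanosomes OCA2 rose from 1.1 and 1.84 to 11.5 and 18.6 CPM (log2 fold change 3.33). The exchanger SLC24A5 had 2 and 3 counts in the wild-type libraries and 32 and 7 in the mutant libraries, and it was called higher. The call of SLC24A5 was lost without wild-type library 1 (log2 fold change 3.79) and without wild-type library 2 (log2 fold change 4.38). It was under the filter without mutant library 1. DCT stayed under the filter, with 1 and 3 and 7 and 0 counts.

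Regulators of the lineage were called in both directions. Of 20 tested genes of neural crest and pigment lineage, 3 were called higher (range 1 to 5) and 1 lower, with a median log2 fold change of 0.49. The shares, 15% and 5%, compare with 9.72% and 9.57% of all genes. Of the genes listed as MITF, one (ENSDARG00000003732) had 3.09 and 1.72 CPM in wild-type melanophores and 4.89 and 1.36 CPM in mutant melanoma (log2 fold change 0.41, edgeR adjusted p = 0.735). The other (ENSDARG00000037833) fell from 15.24 and 13.4 to 1.71 and 0 CPM (log2 fold change -3.87, standard error 0.75, edgeR adjusted p = 0.0107). The counts of the first were few and the mutant libraries lay on both sides of the wild-type libraries, while the second was lower in both. The log2 fold change of the second was -9.64 without mutant library 1, since its count in the other was 0. The shared symbol does not tell which of these genes is mitfa. Reads of a plasmid's mitfa minigene could not be told apart from those of the fish gene. SOX10, a neural crest regulator of mitfa, had 10 and 16 counts in the wild-type libraries and 5 and 26 in the mutant libraries and was not called. Its log2 fold change was 2.54 without mutant library 1, where it passed, and -0.27 without mutant library 2. The endothelin receptor gene EDNRB (ENSDARG00000089334) rose from 3.42 and 4.59 to 20 and 23.4 CPM (log2 fold change 2.43). PAX7 (ENSDARG00000100398), a regulator of the xanthophore lineage, rose from 1.99 and 1.38 to 11 and 10.2 CPM (log2 fold change 2.64). The call of PAX7 was lost without wild-type library 2 (log2 fold change 2.37). The receptor gene KIT had 32.8 and 41.4 CPM in wild-type melanophores and 58.4 and 51.8 CPM in mutant melanoma (log2 fold change 0.57, edgeR adjusted p = 0.0519).

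Genes of the other pigment cells were called higher more often than lower in both lists. Xanthophores are yellow and make pteridines, and iridophores reflect light with purine crystals. Of 19 tested xanthophore and pteridine genes 8 were called higher and 2 lower, with a median of 1.23. Those shares were 42.1% and 10.5%, against 9.72% and 9.57% of all genes. The range of the rises was 4 to 12. The sugar transporter gene slc2a15a rose from 3.31 and 2.64 to 29.1 and 52.8 CPM (log2 fold change 3.76). slc2a15b rose from 1.55 and 2.07 to 25.9 and 43.7 CPM (log2 fold change 4.25). In both the higher value was in mutant library 2. The pteridine enzyme gene gch2 rose from 8.06 and 5.28 to 33.5 and 31.2 CPM (log2 fold change 2.27). Of the 2 falls, csf1ra, a receptor of xanthophores that macrophages use as well, fell from 188 and 187 to 78.7 and 83.7 CPM (log2 fold change -1.21, standard error 0.11, edgeR adjusted p = 0.000358). AKR1B1 (ENSDARG00000045598) fell from 139 and 146 to 60.6 and 65.7 CPM (log2 fold change -1.18). Of 20 tested iridophore and purine synthesis genes 5 (25%) were called higher (range 3 to 6) and 1 (5%) lower, with a median of 0.77. Among the called rises were enzymes of the purine pathway that every dividing cell needs too. ATIC rose from 25.3 and 25.7 to 83.1 and 84.7 CPM (log2 fold change 1.72, standard error 0.14, edgeR adjusted p = 0.00025). PFAS rose from 17.7 and 16.4 to 59.17 and 62.0 CPM (log2 fold change 1.83). GART rose from 15 and 18.1 to 55.5 and 34.2 CPM (log2 fold change 1.45).

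**Figure D3:**
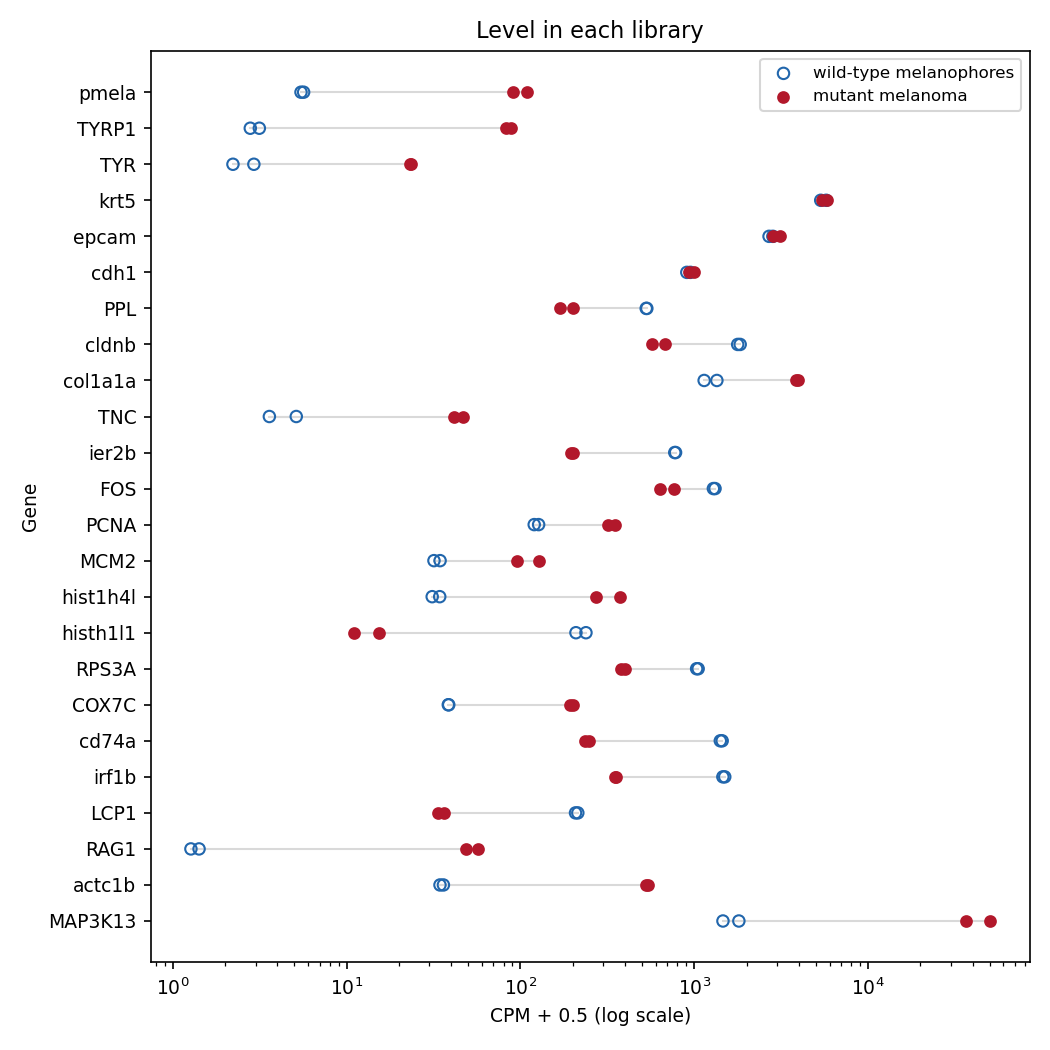
Level of 24 genes in each library (horizontal axis, CPM plus 0.5 on a log scale), with open circles for the 2 wild-type melanophore libraries and filled circles for the 2 mutant melanoma libraries. In pmela, TYRP1, PCNA, hist1h4l and actc1b the mutant libraries lie to the right of both wild-type libraries, in cd74a, irf1b, LCP1, ier2b and histh1l1 to the left, and in krt5, epcam and cdh1 the groups lie together.

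The plot of single genes by library sets these pigment genes beside genes of the epidermis. The keratin krt5 had 5338 and 5739 CPM in wild-type melanophores and 5827 and 5425 CPM in mutant melanoma (log2 fold change 0.02). The adhesion molecule epcam had 2692 and 2831 CPM in wild-type melanophores and 2835 and 3101 CPM in mutant melanoma (log2 fold change 0.10). E-cadherin, cdh1, had 906 and 950.4 CPM in wild-type melanophores and 937 and 992 CPM in mutant melanoma (log2 fold change 0.06). The basal integrin ITGB4, part of the hemidesmosome that ties basal cells to the basement membrane, had 947 and 992 CPM in wild-type melanophores and 1031 and 1028 CPM in mutant melanoma (log2 fold change 0.09). Of 44 tested genes of epidermal junctions and basement membrane 8 were called lower and 0 higher (5 in edgeR at p under 0.05 before adjustment, 0 called by DESeq2). The falls were 18.2% of the list, against 9.57% of all genes. The called falls included plaque proteins of desmosomes, which in human skin are most abundant in the upper layers. PPL, periplakin, fell from 529 and 533 to 168 and 199 CPM (log2 fold change -1.53, standard error 0.11, edgeR adjusted p = 0.000134). Its partner envoplakin, evpla, fell from 285 and 242 to 86.8 and 64.7 CPM (log2 fold change -1.79). The plakophilin PKP1 fell from 126 and 116 to 32.5 and 40.0 CPM (log2 fold change -1.75). pkp3a fell from 906 and 917 to 456 and 407 CPM (log2 fold change -1.08). In each of the 4, as in every gene called lower, the mutant libraries lay at less than the lowest wild-type level.

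Keratins and claudins moved in both directions. Of 19 tested keratin genes 4 were called higher (range 2 to 4) and 5 lower (range 4 to 8), with a median of -0.53. The shares were 21.1% and 26.3%, against 9.72% and 9.57% of all genes. krt17 rose from 192 and 200.2 to 467 and 450.2 CPM (log2 fold change 1.23, standard error 0.09, edgeR adjusted p = 0.000145). krt97 fell from 1305 and 1306 to 612 and 509.5 CPM (log2 fold change -1.22). krt18b fell from 316 and 305 to 104 and 72.2 CPM (log2 fold change -1.80). krt94 fell from 76.0 and 82.6 to 25.2 and 24.1 CPM (log2 fold change -1.68). krt4, a keratin of the outer layer of zebrafish epidermis, had 2332 and 2355 CPM in wild-type melanophores and 1654 and 1584 CPM in mutant melanoma (log2 fold change -0.53, edgeR adjusted p = 0.00182), which is past the p threshold but under the fold threshold. Claudins seal tight junctions. The list of claudins and tight junction genes had 2 of 36 called higher and 5 lower (range 4 to 8), 5.56% and 13.9%. cldnb fell from 1837 and 1777 to 682 and 569 CPM (log2 fold change -1.53, standard error 0.10, edgeR adjusted p = 0.000117). cldn1 rose from 24.0 and 25.7 to 97.3 and 98.2 CPM (log2 fold change 1.98, standard error 0.13, edgeR adjusted p = 0.000129), and the junction linkers cgna and cgnb both fell (log2 fold change -1.91 and -1.79). The mucins of the skin split as well, with muc5.1 rising from 78.4 and 84.3 to 223 and 262 CPM (log2 fold change 1.57) and muc5.2 falling from 533 and 545 to 239 and 215 CPM (log2 fold change -1.25).

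Collagen genes were higher in mutant melanoma. Of 45 tested collagen genes 28 were called higher, 62.2% against 9.72% of all genes, and 0 lower (0 in edgeR at p under 0.05 before adjustment, 0 called by DESeq2), with a median log2 fold change of 1.49. With each library left out in turn 25 to 30 were called higher. The 3 chains of type I collagen, the main fiber of dermis and scales, were also the most abundant. col1a1a rose from 1349 and 1139.6 to 3961 and 3825 CPM (log2 fold change 1.65, standard error 0.09, edgeR adjusted p = 6.6e-05). COL1A2 rose from 1576 and 1386 to 4499 and 4380.2 CPM (log2 fold change 1.58). COL1A1 (ENSDARG00000035809) rose from 1394 and 1228 to 3726 and 3617 CPM (log2 fold change 1.49). COL12A1 (ENSDARG00000078322), which lies on the surface of collagen fibers, rose from 85.3 and 84.8 to 308 and 282 CPM (log2 fold change 1.79). The collagen genes summed to 6596 and 5975 CPM in wild-type melanophores and 16968 and 16497 CPM in mutant melanoma. The collagen chaperone SERPINH1 rose at both of its genes (log2 fold change 2.46 and 1.5).

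Of 84 tested matrix glycoproteins and proteoglycans 29 were called higher and 5 lower (range 3 to 7), with a median of 0.83, and 19 to 41 were called higher with each library left out. Those shares were 34.5% and 5.95%, against 9.72% and 9.57% of all genes. TNC (ENSDARG00000078362), the gene of tenascin C, rose from 4.64 and 3.10 to 41.1 and 46.1 CPM (log2 fold change 3.48, standard error 0.28, edgeR adjusted p = 0.000265). FN1 (ENSDARG00000019815), the gene of fibronectin, rose from 153 and 150.2 to 359 and 347 CPM (log2 fold change 1.22). POSTN (ENSDARG00000104267), the gene of periostin, rose from 412 and 429 to 874 and 922 CPM (log2 fold change 1.09). AGRN, the gene of agrin, rose from 118 and 118 to 276 and 274 CPM (log2 fold change 1.22). SPARC had 414 and 438 CPM in wild-type melanophores and 625 and 589 CPM in mutant melanoma (log2 fold change 0.51), under the fold threshold. Of 28 tested genes of scales and bone mineralization 10 (35.7%) were called higher and 2 (7.14%) lower, against 9.72% and 9.57% of all genes. With 1 library left out 6 to 11 were higher. IFITM5, a membrane protein of osteoblasts, rose from 8.17 and 6.43 to 73.6 and 98.6 CPM (log2 fold change 3.55, standard error 0.23, edgeR adjusted p = 0.000104). PHEX, an endopeptidase of phosphate balance, rose from 12.48 and 12 to 39.9 and 38.3 CPM (log2 fold change 1.67). Of the proteases 6 were called higher (range 4 to 15) and 3 lower (range 1 to 8) of 55. The shares were 10.9% and 5.45%, against 9.72% and 9.57% of all genes. The metalloprotease mmp30 rose from 14.7 and 12.9 to 174 and 158 CPM (log2 fold change 3.59, standard error 0.14, edgeR adjusted p = 1.9e-05). ADAMTS8 (ENSDARG00000007709) rose from 12 and 13 to 54.0 and 44.4 CPM (log2 fold change 1.98). ADAM17 (ENSDARG00000093093), which sheds growth factors from the cell surface, rose from 31.9 and 32.1 to 73.3 and 58.3 CPM (log2 fold change 1.04). The call of ADAM17 was lost without mutant library 1 (log2 fold change 0.84). Integrins, the receptors of matrix, were 5 higher (range 4 to 9) and 4 lower of 32. That is 15.6% and 12.5%, against the same 9.72% and 9.57%. ITGB3 (ENSDARG00000056767) rose from 59.09 and 63.9 to 193 and 183 CPM (log2 fold change 1.62) and its partner ITGAV had 385 and 387 CPM in wild-type melanophores and 557 and 601 CPM in mutant melanoma (log2 fold change 0.58). The falls included chains of leukocytes. itgb2 fell from 135 and 146 to 34.2 and 30.8 CPM (log2 fold change -2.10). itgae.1 fell from 66.7 and 60.5 to 4.65 and 9.15 CPM (log2 fold change -3.25).

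Immediate early genes, which respond within minutes to growth factors and stress and also to tissue dissociation, were lower as a group. Of 44 tested 17 were called lower, 38.6% against 9.57% of all genes, and 0 higher (0 in edgeR at p under 0.05 before adjustment, 0 called by DESeq2), with a median of -0.75. The fold change was negative for 41 of the 44, and 15 to 18 were called lower with each library left out. Their sum was 19919.9 and 19842 CPM in wild-type melanophores and 11209 and 10976 CPM in mutant melanoma. ier2b fell from 780.3 and 772 to 196 and 200.2 CPM (log2 fold change -1.97, standard error 0.08, edgeR adjusted p = 1.9e-05). ier2a fell from 843 and 852 to 288 and 273 CPM (log2 fold change -1.60). IER5 fell from 524 and 585 to 160.4 and 138 CPM (log2 fold change -1.89). SOCS3 (ENSDARG00000025428), an inhibitor of cytokine signalling, fell from 1442 and 1438 to 479 and 484 CPM (log2 fold change -1.58). JUNB (ENSDARG00000104773) fell from 1656 and 1503 to 792 and 785 CPM (log2 fold change -1.0). The call of JUNB was lost without wild-type library 1 (log2 fold change -0.96). FOS and FOSB, the best known members, had 1316 and 1288 CPM in wild-type melanophores and 767 and 637 CPM in mutant melanoma (log2 fold change -0.89) and 1317 and 1239 CPM in wild-type melanophores and 1004 and 1035 CPM in mutant melanoma (log2 fold change -0.33). Both were under the fold threshold, and FOS passed it without mutant library 1 (log2 fold change -1.06). Single stress genes outside this list were lower as well. The list of oxidative stress and metallothionein genes had 2 of 32 called higher and 5 lower, 6.25% and 15.6% against 9.72% and 9.57% of all genes. Its median was 0.22, and 20 of its genes had a positive fold change and 12 a negative one. ATF3 fell from 99.5 and 112 to 49.6 and 47.8 CPM (log2 fold change -1.12). NFE2L2 fell from 142 and 135 to 52.3 and 60.6 CPM (log2 fold change -1.30). The heme oxygenase gene HMOX1 fell from 79.9 and 76.1 to 20 and 18.6 CPM (log2 fold change -2.01).

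The output genes of MAPK signalling, the pathway that the oncogene feeds, did not pass the thresholds. Of 27 tested MAPK output and feedback genes 0 were called higher (3 in edgeR at p under 0.05 before adjustment, 0 called by DESeq2) and 0 lower (4 in edgeR at p under 0.05 before adjustment, 0 called by DESeq2). The median of the list was 0.27, and 17 of its genes had a positive fold change and 10 a negative one. DUSP6, a phosphatase that feeds back on ERK, had 429.5 and 439 CPM in wild-type melanophores and 317 and 262 CPM in mutant melanoma (log2 fold change -0.58, standard error 0.11, edgeR adjusted p = 0.00944). DUSP2 had 639.6 and 626 CPM in wild-type melanophores and 345 and 329 CPM in mutant melanoma (log2 fold change -0.91, standard error 0.08, edgeR adjusted p = 0.000392). Both lay below the wild-type level in both mutant libraries but under the fold threshold. The TGF-beta list had 2 genes called higher and 4 lower (range 2 to 9) of 41. Those shares, 4.88% and 9.76%, compare with 9.72% and 9.57% of all genes. Among the 4 were transcriptional repressors of this pathway. SKIL fell from 156 and 157 to 40.8 and 45.1 CPM (log2 fold change -1.87, standard error 0.12, edgeR adjusted p = 0.000108). skilb fell from 141 and 133 to 48.9 and 53.9 CPM (log2 fold change -1.42). Of 43 clock genes 10 were called lower (range 7 to 13), 23.3% against 9.57% of all genes, and 1 higher. The clock-controlled repressor nfil3-6 fell from 195 and 189 to 59.9 and 52.5 CPM (log2 fold change -1.77, standard error 0.12, edgeR adjusted p = 0.000121). The activator tefb, which binds the same type of site, fell from 70.5 and 70.5 to 23.2 and 18.6 CPM (log2 fold change -1.74). The time of day at which the fish were taken was not given in the sources used here. Among the transcription factors of epithelial to mesenchymal transition 1 was higher and 2 lower of 15. That is 6.67% and 13.3%, against 9.72% and 9.57% of all genes. zeb1a, a repressor of E-cadherin, fell from 22.3 and 20 to 4.65 and 4.07 CPM (log2 fold change -2.27).

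DNA replication genes were higher in mutant melanoma. Of 65 tested 21 were called higher, 32.3% against 9.72% of all genes, and 0 lower (0 in edgeR at p under 0.05 before adjustment, 0 called by DESeq2), with a median log2 fold change of 0.90. The count called higher was 12 to 30 with each library left out. The level of PCNA, the clamp that holds DNA polymerase on its template, was 127 and 119.6 CPM in wild-type melanophores and 317 and 350.3 CPM in mutant melanoma (log2 fold change 1.44, standard error 0.10, edgeR adjusted p = 0.00014). MCM2 and MCM5, subunits of the replicative helicase, rose from 34 and 31.3 to 95.3 and 127 CPM (log2 fold change 1.76, standard error 0.17, edgeR adjusted p = 0.000576) and from 36.2 and 31.9 to 101 and 91.5 CPM (log2 fold change 1.5). LIG1, which joins the fragments of the lagging strand, rose from 8.50 and 7.34 to 43.3 and 39.6 CPM (log2 fold change 2.39). RPA3, which coats single-stranded DNA, rose from 5.85 and 7.57 to 57.5 and 62.7 CPM (log2 fold change 3.16). In these 5 genes, as in every gene called higher, both mutant libraries stood at more than the highest wild-type level. Of 51 tested checkpoint and repair genes 7 were called higher and 0 lower (0 in edgeR at p under 0.05 before adjustment, 0 called by DESeq2), with a median of 0.62. The rises were 13.7% of the list, against 9.72% of all genes, with a range of 4 to 16. The mismatch repair gene MSH6 rose from 17.9 and 19.4 to 40.6 and 46.4 CPM (log2 fold change 1.22). FANCD2, which acts at crosslinked DNA, rose from 13.9 and 18.9 to 42.5 and 39.3 CPM (log2 fold change 1.32). The call of FANCD2 was lost without wild-type library 1 (log2 fold change 1.09).

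Part of the mitotic genes rose as well. The median log2 fold change of 92 tested mitosis and spindle genes was 0.50. Of them 17 (18.5%) were called higher and 1 (1.09%) lower, against 9.72% and 9.57% of all genes. This count depended on single libraries, since 3 to 32 were called higher with each library left out. The kinetochore genes dsn1 and kntc1 rose from 3.31 and 4.82 to 21.5 and 14.2 CPM (log2 fold change 2.14, standard error 0.39, edgeR adjusted p = 0.0085) and from 26 and 24.9 to 55.0 and 74.2 CPM (log2 fold change 1.34). The call of dsn1 was lost without wild-type library 1 (log2 fold change 1.87). The condensin subunit NCAPG rose from 7.62 and 6.43 to 23.0 and 28.8 CPM (log2 fold change 1.87). The mitotic kinase CDK1 rose from 10.1 and 11.9 to 26.9 and 23.7 CPM (log2 fold change 1.2). The activator of the anaphase complex CDC20 rose from 7.29 and 6.43 to 22.0 and 15.9 CPM (log2 fold change 1.47). The call of CDK1 was lost without wild-type library 1 (log2 fold change 1.06) and without wild-type library 2 (log2 fold change 1.31). The call of CDC20 was lost without wild-type library 1 (log2 fold change 1.54) and without wild-type library 2 (log2 fold change 1.36). The proliferation marker mki67 had 62.6 and 64.0 CPM in wild-type melanophores and 64.5 and 61.0 CPM in mutant melanoma (log2 fold change -0.01, edgeR adjusted p = 0.958), so that the groups overlapped. The call downward was SMC4, a condensin subunit, from 47.7 and 54.3 to 25.9 and 20.3 CPM (log2 fold change -1.13, standard error 0.19, edgeR adjusted p = 0.00663). The call of SMC4 was lost without wild-type library 2 (log2 fold change -1.06) and without mutant library 2 (log2 fold change -0.99). cdkn1a, an inhibitor of cyclin-dependent kinases, rose from 13.7 and 12.4 to 27.1 and 26.4 CPM (log2 fold change 1.04, standard error 0.23, edgeR adjusted p = 0.0177). The call of cdkn1a was lost without wild-type library 1 (log2 fold change 1.09), without wild-type library 2 (log2 fold change 0.94) and without mutant library 1 (log2 fold change 0.99). The stress kinase PLK3 fell from 836 and 879.9 to 389 and 396 CPM (log2 fold change -1.13).

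**Figure D4:**
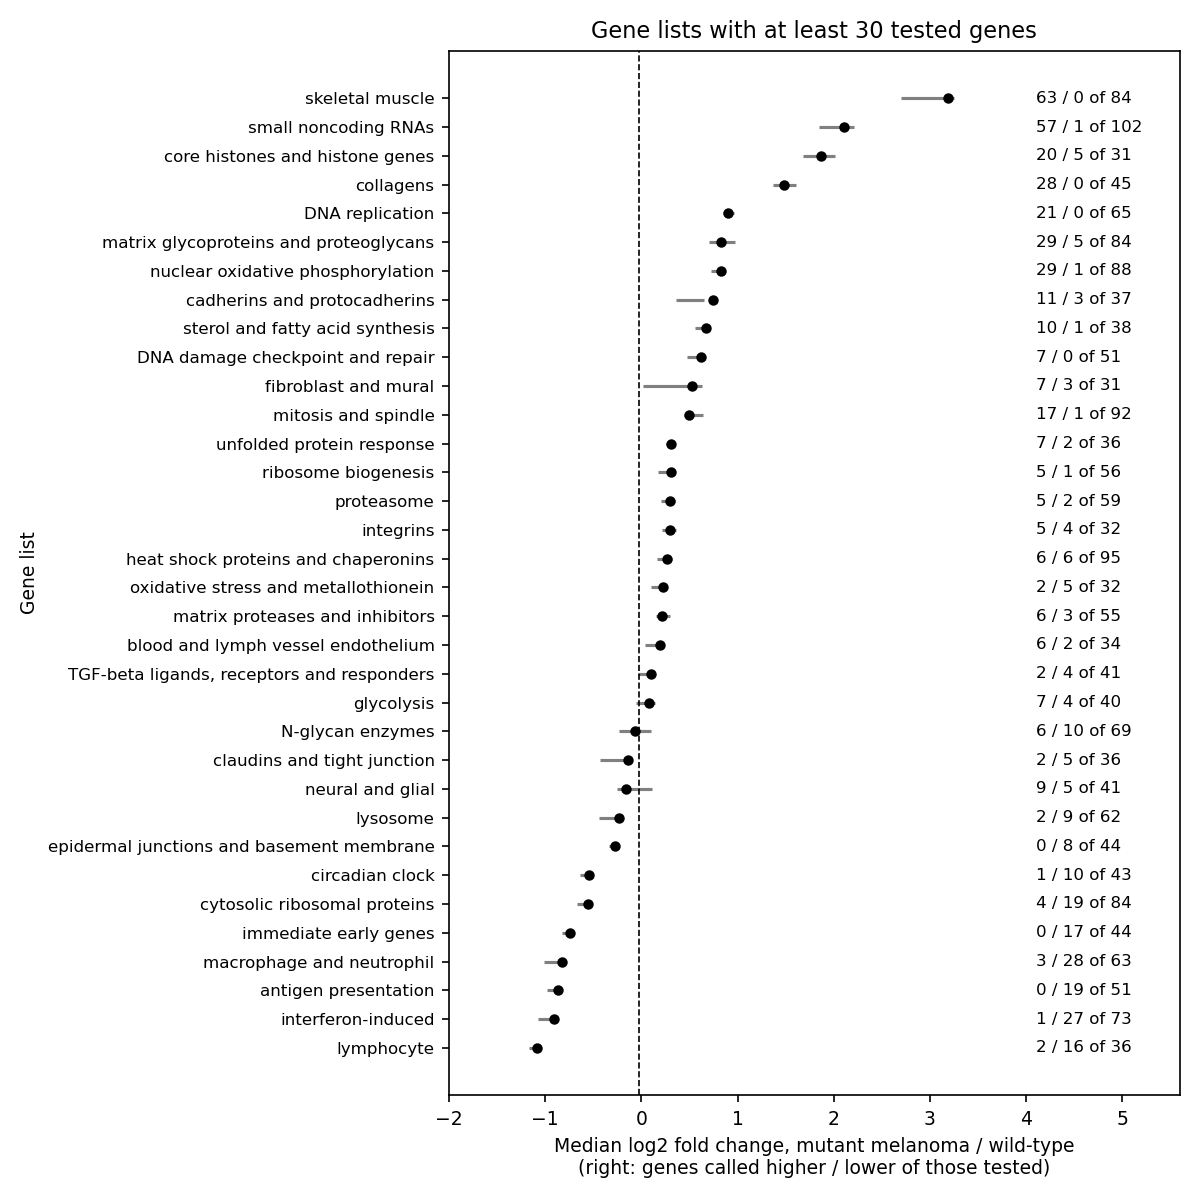
Median log2 fold change of mutant melanoma against wild-type melanophores (horizontal axis) for the gene lists with at least 30 tested genes. Points are medians over the 4 libraries, horizontal lines run from the lowest to the highest median with 1 library left out, and the numbers beside each list are the genes called higher and lower. Skeletal muscle has the highest median, 3.18, and lymphocyte genes the lowest, -1.09, and the dashed line marks the median of all genes, -0.03.

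The plot of list medians places the cell cycle lists on the side of the rises, beside the histones. Of 31 tested histone genes 20 were called higher and 5 lower, with a median of 1.87. Those shares were 64.5% and 16.1%, against 9.72% and 9.57% of all genes. The core histone genes hist1h4l and hist1h2a7 rose from 30.6 and 33.9 to 373 and 273 CPM (log2 fold change 3.33, standard error 0.17, edgeR adjusted p = 4.4e-05) and from 17.8 and 20.8 to 179 and 175 CPM (log2 fold change 3.20). The variant h2ax, which is phosphorylated at DNA breaks, rose from 24.5 and 23.1 to 157 and 176 CPM (log2 fold change 2.81). The linker histone histh1l1 fell from 208 and 238 to 10.5 and 14.9 CPM (log2 fold change -4.16, standard error 0.18, edgeR adjusted p = 2.3e-05). H1-10 fell from 57.8 and 55.8 to 1.47 and 6.44 CPM (log2 fold change -3.95). For H1-10 the log2 fold change was -3.17 without mutant library 1 and -5.27 without mutant library 2. Histone transcripts are short, with a median of 630.0 exonic bases in this list, and most belong to clusters of near-identical copies whose reads counting could split between genes. Of the 587 genes tested on chromosome 25, singled out after the values were seen, 19.4% were called higher, against 9.72% of all genes.

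Genes of protein folding in the endoplasmic reticulum rose in part. Of 36 tested genes of the unfolded protein response 7 were called higher and 2 lower, with a median of 0.31. The shares, 19.4% and 5.56%, compare with 9.72% and 9.57% of all genes. CRELD2 and MANF, secreted chaperones that this response induces, rose from 4.42 and 3.33 to 20.8 and 30.1 CPM (log2 fold change 2.7, standard error 0.35, edgeR adjusted p = 0.00193) and from 23.0 and 17.9 to 51.6 and 77.2 CPM (log2 fold change 1.65). The chaperone HYOU1 rose from 43.6 and 44.5 to 96.3 and 116 CPM (log2 fold change 1.27). The disulfide isomerase PDIA4 rose from 34 and 41.4 to 88.5 and 84.4 CPM (log2 fold change 1.2). The central chaperone HSPA5, known as BiP, had 402 and 388 CPM in wild-type melanophores and 504 and 481 CPM in mutant melanoma (log2 fold change 0.32), under the fold threshold. Of 95 tested heat shock proteins and chaperonins 6 were called higher (range 5 to 15) and 6 lower (range 3 to 15), 6.32% in each direction against 9.72% and 9.57% of all genes. The cofactor of the mitochondrial chaperonin, HSPE1, rose from 12.8 and 15.1 to 229.6 and 179.5 CPM (log2 fold change 3.87, standard error 0.18, edgeR adjusted p = 2.6e-05). FKBP5, a cochaperone of steroid receptors, fell from 753 and 774 to 352 and 368 CPM (log2 fold change -1.09). The abundant cytosolic chaperones HSPA8 (ENSDARG00000068992) and HSP90AB1 had log2 fold changes of -0.33 and -0.72. The share of proteasome genes called higher was close to the background, with 5 of 59 (range 2 to 7), 8.47% against 9.72% of all genes. Called lower were 2, 3.39% against 9.57% of all genes. The median of the list was 0.30, and 43 of its genes had a positive fold change and 16 a negative one. The small subunit SEM1 rose from 17.0 and 16.4 to 90.2 and 98.9 CPM (log2 fold change 2.50, standard error 0.15, edgeR adjusted p = 7.3e-05). PSME2, an activator subunit that interferon induces, fell from 68.9 and 73.6 to 30.3 and 34.6 CPM (log2 fold change -1.14).

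Of 69 tested N-glycan enzymes, the wider pathway in which mgat4b acts, 6 were called higher and 10 lower, with a median of -0.06. Those shares, 8.70% and 14.5%, compare with 9.72% and 9.57% of all genes. The counts depended on single libraries, with 5 to 12 higher and 1 to 15 lower with each left out. The called rises held 3 subunits of the oligosaccharyltransferase, the complex that moves the finished sugar tree onto the protein. DAD1 rose from 37.1 and 44.6 to 177 and 187 CPM (log2 fold change 2.15, standard error 0.13, edgeR adjusted p = 8.9e-05). The catalytic subunit STT3B rose from 88.8 and 98.9 to 225 and 226 CPM (log2 fold change 1.26). RPN2 rose from 111 and 116 to 242 and 261 CPM (log2 fold change 1.15). The other catalytic subunit, STT3A, had 87.6 and 86.6 CPM in wild-type melanophores and 160.4 and 176 CPM in mutant melanoma (log2 fold change 0.95), just under the fold threshold. mgat5, which adds another branch to the same core, fell from 113 and 135 to 50.6 and 63.3 CPM (log2 fold change -1.13, standard error 0.16, edgeR adjusted p = 0.00303). The call of mgat5 was lost without mutant library 1 (log2 fold change -1.0). Of the MGAT1 genes, whose enzyme starts the first branch, ENSDARG00000036065 fell from 25.4 and 30.4 to 10 and 14.9 CPM (log2 fold change -1.18). The call of this gene was lost without wild-type library 1 (log2 fold change -1.32), without wild-type library 2 (log2 fold change -1.06) and without mutant library 1 (log2 fold change -0.93). The other MGAT1 gene (ENSDARG00000012407) had 24.6 and 26.5 CPM in wild-type melanophores and 30.3 and 24.4 CPM in mutant melanoma (log2 fold change 0.10). MGAT4A, the closest relative of mgat4b, had 71.3 and 62.1 CPM in wild-type melanophores and 34.2 and 48.4 CPM in mutant melanoma (log2 fold change -0.70, edgeR adjusted p = 0.0369), past the p threshold but not the fold threshold. Galectins, which bind branched N-glycans at the cell surface, had 2 of 13 called lower and 0 higher (1 in edgeR at p under 0.05 before adjustment, 0 called by DESeq2). The falls were 15.4% of the list, against 9.57% of all genes. lgals9l1 fell from 45.0 and 50.0 to 2.2 and 3.39 CPM (log2 fold change -4.12, standard error 0.29, edgeR adjusted p = 0.00014). lgals9l3 fell from 24.3 and 24.9 to 7.82 and 5.76 CPM (log2 fold change -1.84).

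Ribosomal proteins were lower and nuclear genes of the respiratory chain higher. Of 84 tested cytosolic ribosomal proteins 19 were called lower, 22.6% against 9.57% of all genes, and 4 higher, with a median of -0.55. RPS3A fell from 1053 and 1031 to 376 and 398 CPM (log2 fold change -1.43, standard error 0.08, edgeR adjusted p = 5.7e-05). RPL6 fell from 639 and 651 to 242 and 225 CPM (log2 fold change -1.46). RPL24 fell from 466 and 446 to 162 and 152 CPM (log2 fold change -1.54). RPL3 and RPS2, both among the most abundant of the list, were not called, with log2 fold changes of -0.85 and -0.47. The count called lower was 16 to 22 with each library left out. Of 56 ribosome biogenesis genes 5 were called higher (range 3 to 8) and 1 lower. Their shares were 8.93% and 1.79%, against 9.72% and 9.57% of all genes. NHP2, a protein of the snoRNA particles that modify ribosomal RNA, rose from 14.9 and 11.6 to 49.4 and 53.5 CPM (log2 fold change 1.95, standard error 0.21, edgeR adjusted p = 0.000855). UTP20 rose from 38.3 and 41.9 to 102 and 78.3 CPM (log2 fold change 1.17). The call of UTP20 was lost without mutant library 1 (log2 fold change 0.94). The nucleolar helicase DDX21 fell from 87.9 and 86.6 to 34.2 and 29.5 CPM (log2 fold change -1.45).

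Of 88 tested nuclear genes of oxidative phosphorylation 29 were called higher and 1 lower, with a median of 0.82. Those shares were 33% and 1.14%, against 9.72% and 9.57% of all genes. With each library left out 27 to 38 were higher. The subunits UQCR10 of complex III, COX7C and cox5aa of complex IV and atp5mc1 of the ATP synthase rose. UQCR10 rose from 27.3 and 24.2 to 154 and 207 CPM (log2 fold change 2.80, standard error 0.18, edgeR adjusted p = 9.4e-05). COX7C rose from 38.2 and 38.0 to 201 and 192 CPM (log2 fold change 2.37). cox5aa rose from 73.7 and 80.2 to 226 and 242 CPM (log2 fold change 1.61). atp5mc1 rose from 48.0 and 51.0 to 213 and 175 CPM (log2 fold change 1.98). The large catalytic subunits of the ATP synthase, ATP5F1A and ATP5F1B, had log2 fold changes of 0.50 and 0.60. The tested genes of this list had a median of 906 exonic bases. Of 13 protein genes of the mitochondrial genome 1 was called higher and 3 lower, 7.69% and 23.1% against 9.72% and 9.57% of all genes. MT-CO1 fell from 7204 and 7909 to 2659 and 3534 CPM (log2 fold change -1.29, standard error 0.13, edgeR adjusted p = 0.000725). MT-ND4 fell from 224 and 254 to 71.6 and 83.3 CPM (log2 fold change -1.63). The rise was MT-ND6, from 84.2 and 85.3 to 491 and 674 CPM (log2 fold change 2.78, standard error 0.16, edgeR adjusted p = 6.6e-05), the only protein gene on the light strand of vertebrate mitochondrial DNA. The strand setting of the counting was not given in the sources used here, so reads of MT-ND6 and of transcripts from the opposite strand cannot be told apart.

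Of 38 tested genes of sterol and fatty acid synthesis 10 were called higher and 1 lower, with a median of 0.67. Those shares were 26.3% and 2.63%, against 9.72% and 9.57% of all genes. FDPS and FDFT1, successive enzymes on the way to squalene, rose from 31.8 and 30.4 to 111 and 105 CPM (log2 fold change 1.80, standard error 0.13, edgeR adjusted p = 0.000148) and from 12 and 13.5 to 56.5 and 63.0 CPM (log2 fold change 2.22). The later enzymes EBP and TM7SF2 rose from 43.8 and 51.1 to 155 and 195 CPM (log2 fold change 1.88) and from 15.8 and 18.9 to 56.2 and 65.0 CPM (log2 fold change 1.80). HMGCS1 and MSMO1, the most abundant genes of this pathway, had log2 fold changes of 0.55 and 0.38. Of 62 lysosome genes 9 were called lower (range 8 to 14), 14.5% against 9.57% of all genes, and 2 higher. PSAP, the precursor of activators of lipid breakdown, fell from 638 and 608 to 275 and 273 CPM (log2 fold change -1.18, standard error 0.08, edgeR adjusted p = 0.000138). The protease CTSC fell from 179 and 174 to 79.7 and 94.5 CPM (log2 fold change -1.02). The call of CTSC was lost without mutant library 1 (log2 fold change -0.93). HEXA, which cleaves gangliosides, rose from 31.4 and 30.5 to 82.6 and 108 CPM (log2 fold change 1.62). Glycolytic genes divided by paralog, 7 higher and 4 lower (range 3 to 7) of 40. That is 17.5% and 10%, against 9.72% and 9.57% of all genes. The PKM gene ENSDARG00000099860 rose from 0.773 and 0.689 to 27.6 and 32.5 CPM (log2 fold change 5.32, standard error 0.36, edgeR adjusted p = 0.000127), and the PKM gene ENSDARG00000099730, the more abundant one, fell from 371 and 382 to 175 and 186 CPM (log2 fold change -1.06). PGAM2, the muscle form of its enzyme, and one GAPDH gene (ENSDARG00000043457) rose from 0.331 and 0.803 to 18.8 and 18.0 CPM (log2 fold change 4.98, and 5.67 without wild-type library 2) and from 12.9 and 14.7 to 171 and 159 CPM (log2 fold change 3.58), beside the muscle genes described below.

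Genes of leukocytes and of antigen presentation were lower. Of 63 tested macrophage and neutrophil genes 28 were called lower, 44.4% against 9.57% of all genes, and 3 higher (range 1 to 5), with a median of -0.83. The falls numbered 24 to 33 with each library left out. LCP1, an actin bundler of leukocytes, fell from 207 and 213 to 33.3 and 35.9 CPM (log2 fold change -2.61, standard error 0.12, edgeR adjusted p = 2.6e-05). The protease gene ctss2.1 fell from 200.2 and 213 to 58.4 and 65.0 CPM (log2 fold change -1.75). LGMN fell from 434 and 451 to 154 and 139 CPM (log2 fold change -1.59). CORO1A fell from 305 and 315 to 112 and 112 CPM (log2 fold change -1.46). The lysozyme gene lyz, a neutrophil marker, rose from 3.42 and 3.79 to 16.6 and 11.5 CPM (log2 fold change 1.97). The call of lyz was lost without wild-type library 1 (log2 fold change 1.87) and without wild-type library 2 (log2 fold change 2.01). Of 51 tested genes of antigen presentation 19 (37.3%) were called lower and 0 higher (1 in edgeR at p under 0.05 before adjustment, 0 called by DESeq2), with a median of -0.87. The range of the falls was 16 to 24. The invariant chains that guide MHC class II, cd74a and cd74b, fell from 1447 and 1411 to 249 and 235 CPM (log2 fold change -2.56, standard error 0.08, edgeR adjusted p = 1.2e-05) and from 720.0 and 732 to 182 and 162 CPM (log2 fold change -2.08). The class II chain mhc2dhb fell from 417 and 436 to 95.6 and 83.7 CPM (log2 fold change -2.25). The class I light chain b2m had 1553 and 1631 CPM in wild-type melanophores and 853 and 889 CPM in mutant melanoma (log2 fold change -0.87, standard error 0.07, edgeR adjusted p = 0.00032), under the fold threshold. Of 73 tested interferon-induced genes 27 were called lower and 1 higher, with a median of -0.91. Those shares were 37% and 1.37%, against 9.57% and 9.72% of all genes. With each library left out 18 to 40 were lower. The transcription factor irf1b fell from 1460.2 and 1497 to 354 and 349.6 CPM (log2 fold change -2.07, standard error 0.08, edgeR adjusted p = 1.6e-05). helz2a fell from 313 and 324 to 110.0 and 107 CPM (log2 fold change -1.55). The summed level of the 4 leukocyte markers went from 724 and 754 CPM to 225 and 249.7 CPM. LCP1, CORO1A and lyz are among these markers, so the sum is not independent of the macrophage and neutrophil list. The part of leukocyte content in the falls was not tested.

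Lymphocyte genes held both a large fall and a large rise. Of 36 tested 16 were called lower and 2 higher, with a median of -1.09. Those shares were 44.4% and 5.56%, against 9.57% and 9.72% of all genes. The falls ranged over 10 to 20. ighm, the heavy chain of immunoglobulin M of B cells, fell from 42.5 and 44.5 to 2.2 and 2.71 CPM (log2 fold change -4.16, standard error 0.28, edgeR adjusted p = 0.000121). The signalling adaptor traf1 fell from 58.6 and 60.0 to 14.2 and 11.9 CPM (log2 fold change -2.18). The costimulatory receptor tnfrsf9a fell from 109 and 115 to 39.4 and 42.7 CPM (log2 fold change -1.45). TCF7, a transcription factor of T cells, fell from 119 and 109 to 46.0 and 46.4 CPM (log2 fold change -1.30). The 2 rises were the recombinase genes RAG1 and RAG2, which assemble antigen receptor genes in immature lymphocytes. RAG1 rose from 0.773 and 0.918 to 47.9 and 56.6 CPM (log2 fold change 5.91, standard error 0.29, edgeR adjusted p = 3.6e-05). RAG2, its neighbour on chromosome 25, had 0 and 3 counts in the wild-type libraries and 12 and 15 in the mutant libraries (log2 fold change 4.39, edgeR adjusted p = 0.0303). RAG1 was high in both mutant libraries, while the counts of RAG2 stayed low in all 4. The call of RAG2 was lost without wild-type library 1 (log2 fold change 3.42) and without wild-type library 2 (log2 fold change 7.41).

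Skeletal muscle genes rose most of all lists. Of 84 tested 63 were called higher, 75.0% against 9.72% of all genes, and 0 lower (1 in edgeR at p under 0.05 before adjustment, 0 called by DESeq2), with a median log2 fold change of 3.18. The rises numbered 42 to 69 with each library left out. The list summed to 1277 and 1272 CPM in wild-type melanophores and 5789 and 5586 CPM in mutant melanoma. The skeletal myosin heavy chain myhc4 rose from 2.87 and 3.90 to 204 and 209 CPM (log2 fold change 5.92, standard error 0.17, edgeR adjusted p = 9.5e-06). The parvalbumin gene pvalb2 rose from 13.4 and 12.51 to 309 and 359 CPM (log2 fold change 4.69). The actin gene actc1b rose from 35.6 and 34 to 529 and 539.7 CPM (log2 fold change 3.94). The giant sarcomere genes listed as TTN rose from 14.9 and 13.2 to 583 and 566 CPM (ENSDARG00000000563, log2 fold change 5.35) and from 107 and 101 to 638 and 649 CPM (ENSDARG00000028213, log2 fold change 2.63). Muscle lies under the skin, and its part in the mutant preparation was not tested. The myelin gene plp1b rose from 0.884 and 1.38 to 33.5 and 34.9 CPM (log2 fold change 4.90, standard error 0.34, edgeR adjusted p = 0.000134). mbpa rose from 0.552 and 0.230 to 9.78 and 7.45 CPM (log2 fold change 4.39), with 5.07 without wild-type library 1. The neural and glial list as a whole had 9 called higher and 5 lower (range 2 to 10) of 41, with a median of -0.16. That is 22% and 12.2%, against 9.72% and 9.57% of all genes.

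Other cell types moved in both directions. Of 31 tested fibroblast and mural genes 7 were called higher (range 4 to 11) and 3 lower (range 3 to 5), 22.6% and 9.68% against 9.72% and 9.57% of all genes. thy1 and s100a10b rose from 109 and 116 to 401 and 403 CPM (log2 fold change 1.84, standard error 0.09, edgeR adjusted p = 3.7e-05) and from 552 and 587 to 1524 and 1491 CPM (log2 fold change 1.40). RGS5 and MYH11 (ENSDARG00000009782), genes of pericytes and smooth muscle, fell from 159 and 173 to 20.5 and 29.5 CPM (log2 fold change -2.75, standard error 0.18, edgeR adjusted p = 0.000113) and from 135 and 142 to 39.1 and 49.8 CPM (log2 fold change -1.65). Genes of blood and lymph vessels had 6 of 34 called higher (range 1 to 8) and 2 lower, with a median of 0.19. Those shares were 17.6% and 5.88%, against 9.72% and 9.57% of all genes. The lymphatic regulator PROX1 and the scavenger receptor mrc1b fell from 60.1 and 56.5 to 22.0 and 21.3 CPM (log2 fold change -1.42) and from 156 and 153 to 23.0 and 40.3 CPM (log2 fold change -2.31). MCAM, an adhesion molecule of vessels that melanoma cells carry as well, rose from 1.88 and 1.61 to 8.56 and 18.3 CPM (log2 fold change 2.92, and 2.27 without mutant library 2). Red cell genes were called no more often than all genes, with 2 of 25 tested higher and 1 lower. Those shares were 8% and 4%, against 9.72% and 9.57% of all genes. The median of the list was 0.52, and 18 of its genes had a positive fold change and 7 a negative one. The red cell genes cahz and SLC4A1 (ENSDARG00000012881) rose from 61.1 and 60.2 to 154 and 156 CPM (log2 fold change 1.35) and from 107 and 117 to 231 and 282 CPM (log2 fold change 1.19). The abundant globin hbaa1 had 809 and 774 CPM in wild-type melanophores and 1286 and 1131 CPM in mutant melanoma (log2 fold change 0.61), under the fold threshold.

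Noncoding RNA made the largest difference in abundance. Of 102 tested genes of small noncoding RNA 57 were called higher and 1 lower, with a median of 2.11. Those shares were 55.9% and 0.98%, against 9.72% and 9.57% of all genes. With each library left out 43 to 76 were higher. rn7sl1, the RNA of the signal recognition particle that docks ribosomes on the endoplasmic reticulum, rose from 62094 and 62512 to 391828 and 314639 CPM (log2 fold change 2.50, standard error 0.10, edgeR adjusted p = 1.9e-05). RNA of this class took 7.67% of the counts in each wild-type library and 30.8% and 26.4% in the mutant libraries. rn7sk, which holds the elongation factor of RNA polymerase II inactive, rose from 14878 and 15376 to 64755 and 47194 CPM (log2 fold change 1.89). rpph1, the RNA of RNase P, rose from 3056 and 3168 to 13829 and 9402 CPM (log2 fold change 1.90). Of 28 small nucleolar RNAs 18 were called higher, and the SNORA73 gene ENSDARG00000080823 rose from 287 and 311 to 2946 and 2680.3 CPM (log2 fold change 3.23). These RNAs are highly structured and short, the libraries were made from total RNA, and the counting of reads that match several copies was not given in the sources used here.

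A set of 8 genes outside that list, chosen after their values were seen, rose to high levels. They were called at a log2 fold change of at least 3 and reached a mean of at least 1000 CPM in mutant melanoma. Together they took 0.403% and 0.346% of the counts in the wild-type libraries and 6.02% and 8.77% in the mutant libraries. MAP3K13, a kinase of stress signalling, rose from 1805 and 1462 to 36414 and 50120.5 CPM (log2 fold change 4.73, standard error 0.18, edgeR adjusted p = 1.9e-05). It was the most abundant gene of mutant melanoma per kilobase outside small noncoding RNA and the mitochondrial genome. si:ch73-337l15.2, to which the annotation gives no function, rose from 340.3 and 303 to 11857 and 15631 CPM (log2 fold change 5.42). The histone chaperone gene SSRP1 (ENSDARG00000037397) rose from 267 and 234 to 8359 and 11804 CPM (log2 fold change 5.33). DYNC1LI2, a light intermediate chain of dynein, rose from 235 and 221 to 5873 and 6826 CPM (log2 fold change 4.80). The others were TNRC6C (log2 fold change 4.6), cep162 (log2 fold change 4.98), IGSF9B (log2 fold change 5.23) and SHISA4 (log2 fold change 4.80). In all 8 the higher value was in mutant library 2. They lie on 8 different chromosomes and share no list, and gene counts cannot tell reads of the whole transcript from reads of a short stretch within it.

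Among the 12 largest rises of genes averaging 10 CPM or more were 3 muscle genes, RAG1 and si:ch73-337l15.2. The gene epd, for ependymin, a secreted glycoprotein first described in fish brain, rose from 0.110 and 1.15 to 51.6 and 63.3 CPM (log2 fold change 6.48, standard error 0.52, edgeR adjusted p = 0.00025). Its log2 fold change was 5.59 without wild-type library 1 and 8.72 without wild-type library 2. ARHGAP39, a GTPase-activating protein, rose from 7.40 and 4.70 to 271 and 292 CPM (log2 fold change 5.53). PTGER1, a prostaglandin receptor, rose from 0.773 and 1.38 to 39.1 and 79.3 CPM (log2 fold change 5.75, and 5.15 without mutant library 2). INSYN2A (ENSDARG00000107296) rose from 2.65 and 1.95 to 73.6 and 122 CPM (log2 fold change 5.39). The Wnt ligand gene WNT1, named after its values were seen, had 1.1 and 0.803 CPM in wild-type melanophores and 63.8 and 3.73 CPM in mutant melanoma (log2 fold change 5.15, edgeR adjusted p = 0.021). Its rise came from mutant library 1 in the main, and the mutant libraries differed far more from each other than the wild-type libraries did. The call of WNT1 was lost without mutant library 1 (log2 fold change 1.92). Among the 12 largest falls of genes averaging 10 CPM or more were interferon-induced genes. ifi44a6 fell from 60.7 and 65.2 to 0.489 and 2.03 CPM (log2 fold change -5.75, standard error 0.39, edgeR adjusted p = 0.000123), with a log2 fold change of -4.97 without mutant library 1 and -6.97 without mutant library 2. ifi44a8 fell from 338 and 275 counts in the wild-type libraries to 2 and 0 in the mutant libraries. si:ch211-235f12.5 had 290 and 271 and 0 and 0 counts, at least 36.1-fold lower against a floor of 3 counts per library, and fabp4a, a fatty acid carrier, fell from 48.3 and 62.5 to 3.42 and 4.07 CPM (log2 fold change -3.90).

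To show which of these changes differ from the tumor model without the cut in mgat4b, mutant melanoma was tested directly against control melanoma, which carries the same oncogene and the same cut tumor suppressors in fish of the same strain and age (2 libraries, edgeR, the same thresholds). The study reports tumors in the control fish and none in the mutant fish, so tumor presence and the cut cannot be told apart there. Of the genes tested there, 5.86% were called higher and 6.68% lower in mutant melanoma. In all 2214 genes were called, between 1140 without control library 2 and 5155 without mutant library 1. DNA replication genes were called higher 35 times of 63. PCNA stood at a mean of 110.1 CPM (wild-type melanophores), 66.3 CPM (control) and 292 CPM (mutant melanoma) (log2 difference 2.15, standard error 0.12, edgeR adjusted p = 1.3e-05, mutant minus control). Proteasome genes, whose share called higher against wild-type melanophores was near the background, were called higher 36 times of 59 against control melanoma. PSMB3 stood at a mean of 55.2 CPM (wild-type melanophores), 36.4 CPM (control) and 118 CPM (mutant melanoma) (log2 difference 1.71, standard error 0.15, edgeR adjusted p = 0.000118). Matrix was on the other side. Collagen genes were called lower 24 times and higher 2 times of 47. col1a1a stood at a mean of 1112 CPM (wild-type melanophores), 19311 CPM (control) and 3410.0 CPM (mutant melanoma) (log2 difference -2.48, standard error 0.07, edgeR adjusted p = 2.5e-07). The mutant level of type I collagen thus lay between the other groups, above wild-type melanophores and below control melanoma.

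Of 22 melanin genes tested between the melanoma groups 1 was called, against 12.5% of all genes. It was myo5ab, which carries melanosomes along actin (log2 difference 1.28, standard error 0.23, edgeR adjusted p = 0.00495). TYRP1 (ENSDARG00000056151) stood at a mean of 2.21 CPM (wild-type melanophores), 77.9 CPM (control) and 74.5 CPM (mutant melanoma) (log2 difference -0.05, standard error 0.13, edgeR adjusted p = 0.849). pmela stood at a mean of 4.53 CPM (wild-type melanophores), 67.3 CPM (control) and 86.9 CPM (mutant melanoma) (log2 difference 0.39, standard error 0.14, edgeR adjusted p = 0.0931). Of 90 muscle genes 9 were called lower and 1 higher between the melanoma groups, against 6.68% and 5.86% of all genes. RAG1 stood at a mean of 0.755 CPM (wild-type melanophores), 3.76 CPM (control) and 45.8 CPM (mutant melanoma) (log2 difference 3.61, standard error 0.26, edgeR adjusted p = 5.2e-05). MAP3K13 stood at a mean of 1459 CPM (wild-type melanophores), 5939 CPM (control) and 37891 CPM (mutant melanoma) (log2 difference 2.69, standard error 0.16, edgeR adjusted p = 1.6e-05). Both were higher in mutant melanoma than in either other group. Against wild-type melanophores, 19.9% of tested genes were called higher in control melanoma and 12.1% lower, 31.9% in all. In all 32 genes were called against wild-type melanophores in opposite directions in the melanoma groups and also called between them, which is part of the 12.5% of genes called between them, and 15 of the 32 were higher in mutant melanoma. FANCD2 stood at a mean of 14.7 CPM (wild-type melanophores), 6.37 CPM (control) and 35.8 CPM (mutant melanoma) (log2 difference 2.51, standard error 0.28, edgeR adjusted p = 0.000431). CDC20 stood at a mean of 6.13 CPM (wild-type melanophores), 2.15 CPM (control) and 16.6 CPM (mutant melanoma) (log2 difference 2.96, standard error 0.49, edgeR adjusted p = 0.00358). The comparisons share the wild-type or the mutant libraries and are not independent of each other.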

How the data were processed

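Total RNA, depleted of ribosomal RNA, was sequenced from dissociated zebrafish skin and tumor biopsies. The deposited values are the authors' raw featureCounts counts for 32520 genes, 1 table per library, from reads that Trimmomatic had trimmed and STAR had placed on GRCz11. The annotation release, the strand setting and the handling of reads that match several genes were not given in the sources used here. Symbols came from a table of gene IDs and covered 29201 genes. Zebrafish gene pairs often share a symbol, and their reads may be split between copies.

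The counts of the 4 libraries were filtered with filterByExpr (a level worth 10 counts in at least 2 libraries and 15 counts in total), scaled by the trimmed mean of M values and tested with edgeR 4.0.16 (quasi-likelihood test, group as the only term, R 4.3.3, limma 3.58.1), with Benjamini-Hochberg adjustment over all genes tested. The counts in the smallest library, 3538922, limit the precision for low genes. In the mean over 3 groups all 6 libraries were scaled together. Folds against libraries without counts were bounded by a floor of 3 counts, which covers counting error only and changed the median of 2 lists. On simulated counts, 51.4% of 107 genes changed by 1.5 on the log2 scale and 100% of 86 changed by 3 were called. There were 3 false calls among 17810 genes tested. The simulation used the real depths, the wild-type means for both groups and the same coefficient of variation, 0.25, for all libraries. It left out the unequal spread and the composition difference of the real groups, so it does not give the false calls there.

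The comparison and the 54 gene lists were chosen with earlier results of these data known, so lists are described by counts and medians, without tests. Genes were named by rule: those cut or driven in the model, the 12 largest rises and falls of at least 10 CPM, and per list the 4 called genes of lowest p and the 3 most abundant. The genes DCT, OCA2, SLC24A5, SOX10, MITF (ENSDARG00000003732), both MGAT1 genes, MGAT4A, CDK1, CDC20, MANF, gch2, mbpa, lyz, RAG2, WNT1, SSRP1, DYNC1LI2, TNRC6C, cep162, IGSF9B and SHISA4 were added after their values were seen. Alternatives were DESeq2 1.42.0, other scalings and filters, a fit of all 6 libraries, a block for the replicate number, and leaving out each library or the most abundant and noncoding genes. Some genes of the model and of the lists are not reported here.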

Additional observations from a re-analysis of the deposited data

Results flagged for a closer look

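The genes FANCD2, MANF and CDC20 were called higher in mutant melanoma and lower in control melanoma against the same wild-type libraries, and the melanoma groups were also tested against each other. FANCD2, a DNA repair gene, was higher in mutant than in control melanoma by 2.51 on the log2 scale (edgeR adjusted p = 0.000431), and both mutant libraries lay above both control libraries. The secreted chaperone gene MANF was higher by 3.42 (edgeR adjusted p = 8.6e-05), at a mean of 18.3 CPM (wild-type melanophores), 5.29 CPM (control) and 56.4 CPM (mutant melanoma). CDC20, which activates the anaphase complex, was higher by 2.96 (edgeR adjusted p = 0.00358), with 19 and 9 counts (control) and 90 and 47 counts (mutant). The calls of FANCD2 and CDC20 against wild-type melanophores were lost without a wild-type library.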

How the results depend on the processing

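The count of 3461 called genes was 2930 with DESeq2, 3450 with DESeq2 size factors, 2989 without a filter (27482 genes tested), 3046 with at least 10 counts in every library (12995 tested), 4393 with all 6 libraries in one fit, and 3442 without the most abundant and noncoding genes. With 1 library left out it ran from 1820 to 6452, the rises from 949 to 2934 and the falls from 871 to 3570, and the calls of mutant against control melanoma, 2619 by DESeq2, from 1140 to 5155. Of the 59 list counts of at least 3 calls, 39 moved by over 1.5 times with 1 library left out. Left-out libraries and DESeq2 for the comparison with control melanoma were chosen after seeing the data, as were the member counts of lists without a mutant library. With raw library totals 5301 genes were called, 883 higher and 4418 lower, so that 16.7% of calls were higher against 50.4%, and 2600 of the 3461 calls remained in the same direction (2865 with DESeq2). There the median of all genes shifted from -0.03 to -0.63 and 19 list medians changed sign, 0 of them relative to that shifted median. Of 207 named genes 154 kept direction and call, 28 lost the call, 10 gained one and 15 changed sign in the log2 fold change, namely MITF (ENSDARG00000003732) -0.21, ITGAV -0.018, ATP5F1A -0.10, MGAT1 (ENSDARG00000012407) -0.50, BRAF -0.21, SPARC -0.094, ITGB4 -0.52, epcam -0.50, KIT -0.033, MSMO1 -0.23, krt5 -0.58, ATP5F1B -0.0011, cdh1 -0.55, HMGCS1 -0.054 and HSPA5 -0.29. Genes close to 0 changed sign elsewhere too, with values of krt5 -0.061 and cdh1 -0.028 without a filter, krt5 -0.034 and cdh1 -0.0023 with at least 10 counts in every library and krt5 -0.0057 with all 6 libraries. With 1 library left out the log2 fold change ran for MITF (ENSDARG00000003732) from -0.85 to 1.0, MGAT1 (ENSDARG00000012407) from -0.095 to 0.23, krt5 from -0.058 to 0.058, SOX10 from -0.27 to 2.54, mki67 from -0.082 to 0.012 and cdh1 from -0.0042 to 0.069. JUNB lost its call with DESeq2 and its size factors (-1.0 both times), cdkn1a and ADAM17 without a filter (0.95 and 0.96) and with at least 10 counts in every library (0.98 and 0.99), and RAG2 without a filter (4.31). The causes were not tested.

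The labels number the libraries alike in both groups, but tie no fish or batch to the numbers. The deviations of equally numbered libraries had a correlation of 0.010 over 9636 genes of at least 10 CPM. As a replicate block the numbers gave 3488 calls, 1664 higher and 1824 lower, and changed no call of a named gene.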

Other observations

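Cadherins and protocadherins, which join cells to each other, had 11 of 37 genes called higher and 3 lower in mutant melanoma, with a median log2 fold change of 0.75. The count of rises was 1 without either wild-type library and 14 and 15 without mutant library 1 or 2. Genes of blood and lymph vessels had 6 of 34 called higher and 2 lower, and 1 was called higher without either wild-type library. Genes of oxidative stress and metallothionein had 2 of 32 called higher and 5 lower. In these 3 lists, in the order given, 29.7%, 17.6% and 6.25% were called higher, against 9.72% of all genes. Called lower were 8.11%, 5.88% and 15.6%, against 9.57%.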
